A study of Homo sapiens with 18 samples.

Results

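Expression of 10 genes of the circadian clock was followed in HEK-293E cells that were starved of serum and then fed: PER1, PER2, PER3, CRY1, CRY2, NR1D1, NR1D2, DBP, BHLHE40 and BMAL1 (also written ARNTL). They were taken by symbol from a table of 60623 genes, as genes known to respond when serum is added to cultured cells. All 10 were in the table, and all 10 passed the filter on low counts that left 16414 genes for testing.

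The clock is a loop of transcription that runs in most cells of the body. The factors BMAL1 and CLOCK bind E-box sequences and switch on the PER and CRY genes, and the PER and CRY proteins then return to the nucleus and block BMAL1 and CLOCK. In a second loop the nuclear receptors NR1D1 and NR1D2 (REV-ERB alpha and beta) repress BMAL1 through elements that ROR receptors use for activation. A pulse of serum is a classical way to set the clocks of cultured fibroblasts to one phase, and PER1 and PER2 are known there as early responders.

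HEK-293E is a human embryonic kidney cell line. Starved cells had been kept overnight in medium with little serum, and fed cells had been given back the usual growth medium with serum for 1 h or for 4 h. Each of these 3 states was sampled without and with Torin1, which inhibits the kinase mTOR in both of its complexes, so that there were 6 groups of 3 libraries, 18 in all. No dose of Torin1, no duration and no vehicle is given in the sources used here. Whether the 3 libraries of a group came from separate cultures is not stated, so the spread behind each p-value may be technical.

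Library totals ranged from 10510689 to 13690035 counts, and with 3 counts as the limit for counting error alone, a gene at 0 could have reached 0.219 to 0.285 CPM, the count scaled to library size. Of 14 markers of HEK293 and embryonic kidney cells, 13 had a mean of at least 1 CPM. Their summed level was 1018 to 1260 CPM in the libraries without Torin1 and 1522 to 1858 CPM in those with it. At least 1 CPM on average was reached by 1 of 10 mature kidney markers (LRP2, with UMOD at 0), 3 of 8 fibroblast markers (COL1A1, COL1A2 and COL3A1, with FAP at 0), 1 of 8 immune markers and 1 of 7 endothelial markers (ESAM). Summed levels of the mature kidney markers were 9.5 to 18.4 CPM without Torin1 and 15.9 to 40.4 CPM with it, and those of the fibroblast markers were 8.93 to 44.4 CPM and 16.5 to 38.3 CPM. The immune markers summed to 1.75 to 5.97 CPM and the endothelial markers to 1.92 to 7.03 CPM over the 18 libraries. Mitochondrially encoded genes held 1.87% to 2.59% of counts in starved, 2.95% to 3.07% in 1 h fed and 2.74% to 3.81% in 4 h fed libraries, and 2.39% to 3.81% in the libraries with Torin1. The part of these differences in the results below was not tested. In bulk RNA, a change in the share of cells that express a gene and a change in RNA per cell cannot be told apart.

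Levels of different genes can be compared only per length, and in TPM (a length-scaled level computed from the isoform table) the clock genes of starved cells fell into a wide range. CRY1, a repressor of the loop, stood at 35.9 ± 2.26 TPM (SD, n = 3) and PER1, its partner, at 34.3 ± 4.15 TPM. NR1D2 followed at 24.3 ± 2.57 TPM. The activator BMAL1 stood at 12.8 ± 0.469 TPM, CRY2 at 12.3 ± 0.372 TPM, the repressor BHLHE40 (DEC1), which competes for E-boxes, at 10.7 ± 3.96 TPM and DBP, a D-box activator and a classical clock output, at 9.09 ± 2.06 TPM. NR1D1 at 2.79 ± 1.11 TPM, PER2 at 2.05 ± 0.526 TPM and PER3 at 1.27 ± 0.575 TPM were the lowest. In starved cells most CRY2 counts were divided between transcripts of 1936 bases (84.1% ± 23.7) and 4203 bases (9.91% ± 17.2). The TPM of CRY2 depends on that unsteady division. All levels below are in CPM scaled by TMM (trimmed mean of M values) and are compared within a gene only.

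Promoter sequences are shown for the 3 genes with the largest changes after 4 h of feeding (PER2, NR1D1 and CRY2) and the 2 with the lowest log2 fold changes (PER3 and BMAL1), so that the letters can be read beside the values. Each is the 250 bases before a RefSeq start (GRCh38.p14), written 5′ to 3′ on the gene's strand; PER3 and BMAL1 have a further start not shown, and both CRY2 starts are given. Capitals mark an E-box (CACGTG), its variant CACGTT, a D-box (TTATGTAA or TTACGTAA) or an element of ROR and REV-ERB receptors (TAGGTCA or TGGGTCA), each searched on both strands.
PER2, chr2:238288611-238288860, minus strand: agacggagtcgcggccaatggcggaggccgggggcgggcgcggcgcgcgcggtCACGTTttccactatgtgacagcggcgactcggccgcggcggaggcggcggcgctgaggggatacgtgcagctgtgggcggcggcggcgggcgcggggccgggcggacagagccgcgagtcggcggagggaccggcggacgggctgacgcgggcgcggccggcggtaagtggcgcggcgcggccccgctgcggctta
NR1D1, chr17:40100590-40100839, minus strand: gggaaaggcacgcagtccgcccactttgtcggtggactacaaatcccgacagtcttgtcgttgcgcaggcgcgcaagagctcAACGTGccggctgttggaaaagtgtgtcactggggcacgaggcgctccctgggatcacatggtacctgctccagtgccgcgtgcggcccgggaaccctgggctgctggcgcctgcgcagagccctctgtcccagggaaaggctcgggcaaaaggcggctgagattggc
CRY2, first start, chr11:45846868-45847117, plus strand: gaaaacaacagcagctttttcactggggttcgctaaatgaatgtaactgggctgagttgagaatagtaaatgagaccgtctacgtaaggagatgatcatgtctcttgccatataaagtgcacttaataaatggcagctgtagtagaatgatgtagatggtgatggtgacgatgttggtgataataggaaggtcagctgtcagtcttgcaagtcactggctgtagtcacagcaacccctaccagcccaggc
CRY2, other start, chr11:45847225-45847474, plus strand: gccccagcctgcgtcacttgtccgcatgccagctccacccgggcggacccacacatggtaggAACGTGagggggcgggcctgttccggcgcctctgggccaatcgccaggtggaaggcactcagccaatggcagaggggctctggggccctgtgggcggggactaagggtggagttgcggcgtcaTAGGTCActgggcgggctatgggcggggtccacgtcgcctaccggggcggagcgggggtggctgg
PER3, chr1:7784041-7784290, plus strand: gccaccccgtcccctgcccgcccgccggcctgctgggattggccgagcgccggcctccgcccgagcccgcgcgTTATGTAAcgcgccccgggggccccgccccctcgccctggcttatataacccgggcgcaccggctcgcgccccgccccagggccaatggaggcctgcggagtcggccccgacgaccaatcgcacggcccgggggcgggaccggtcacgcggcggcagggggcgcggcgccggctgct
BMAL1, chr11:13277540-13277789, plus strand: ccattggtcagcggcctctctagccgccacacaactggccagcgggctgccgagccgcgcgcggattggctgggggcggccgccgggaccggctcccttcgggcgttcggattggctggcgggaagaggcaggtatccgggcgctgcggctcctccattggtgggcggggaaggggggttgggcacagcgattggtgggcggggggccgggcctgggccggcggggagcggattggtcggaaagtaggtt

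The E-box variant lies 197 bases before the start in PER2, 168 before it in NR1D1 and 188 before the other start of CRY2, which also holds a ROR element 65 bases before it. PER3 holds a D-box 177 bases before the start, and the windows of BMAL1 hold none of the 4 motifs as spelled above. Other spellings of these 4 motifs and bases after the start were not searched, so elements there would be missed. Over 14 windows of the 10 genes, the E-box CACGTG was found in 3 genes (PER1, NR1D2 and BHLHE40), and the variant in 4 others (PER2, CRY1, CRY2 and NR1D1). CACGTG is present in 6.34% and the variant in 4.55% of 35116 such windows over all genes. A D-box was found in PER3 and NR1D2 (0.94% of windows) and a ROR element in CRY2 and NR1D2 (4.82% of windows). The cAMP element TGACGTCA (1.65% of windows) and the CArG box of serum response factor (1.16% of windows) were in no window of these genes, while TGACG, contained in that cAMP element, was in 4 genes (PER2, CRY1, CRY2 and NR1D2; 21.2% of windows). These matches describe letters only.

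After 1 h of feeding no clock gene passed the test, PER1 and PER2 included. PER1, the gene best known for an early rise after serum, was 68.5, 85.3 and 74.4 CPM in the starved libraries and 69.9, 80.8 and 83.9 CPM in the 1 h fed ones. The groups overlapped fully, with a log2 fold change of 0.04 ± 0.10 (SE) and a 95% interval of -0.18 to 0.26. PER2 was 6.12, 5.35 and 5.33 CPM in starved cells and 10.5, 6.44 and 6.79 CPM after 1 h. Its groups did not overlap, and the log2 fold change was 0.49 ± 0.19 (95% interval 0.07 to 0.92), but after adjustment over all genes its p was 0.406 in edgeR's quasi-likelihood test. Over 26 alternative fits its log2 fold change was 0.24 (without 1 h fed replicate 1) to 0.63 (without 1 h fed replicate 2) and its adjusted p 0.292 to 0.709. No other clock gene had a lower adjusted p at 1 h: 0 of 10 were called at 1 h, where called means an adjusted p under 0.05. An unadjusted p under 0.05 was reached by 1 of 10, PER2, and by 9.29% of all genes, so 1 of 10 is close to the share over all genes. Of all genes tested, 0.646% were called (106). DESeq2 and limma-voom also called 0 of the 10.

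The same libraries did show an early serum response in other genes. EGR1, an immediate early transcription factor, went from 21.1, 11.9 and 11.3 CPM to 153, 77 and 84.1 CPM, a log2 fold change of 2.83 ± 0.34 (adjusted p = 0.00205). EGR3, of the same family, rose by 2.01 ± 0.29 (adjusted p = 0.00033). In a list of 20 immediate early genes 4 rose and 0 fell at 1 h (3 rose when scaled by library totals). With Torin1, 9 of the 20 rose and 0 fell at 1 h (8 rose by library totals), among them EGR1 by 2.89 ± 0.41 (adjusted p = 0.00777) and EGR3 by 4.87 ± 0.37 (adjusted p = 9.62e-10), where 0.402% of all genes were called. Starting levels differed: in starved cells 16 of the 20 were lower with Torin1 and 0 higher, where 63.5% of all genes were called. Mean EGR1 went from 3.22 to 24.3 CPM with Torin1 and from 14.8 to 105 CPM without it. Mean EGR3 went from 0.529 to 16.2 CPM with Torin1 and from 3.59 to 14.4 CPM without it. Library 1 of the 1 h fed group held the highest value of that group for EGR1, for PER2 and for BHLHE40.

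**Figure D1:**
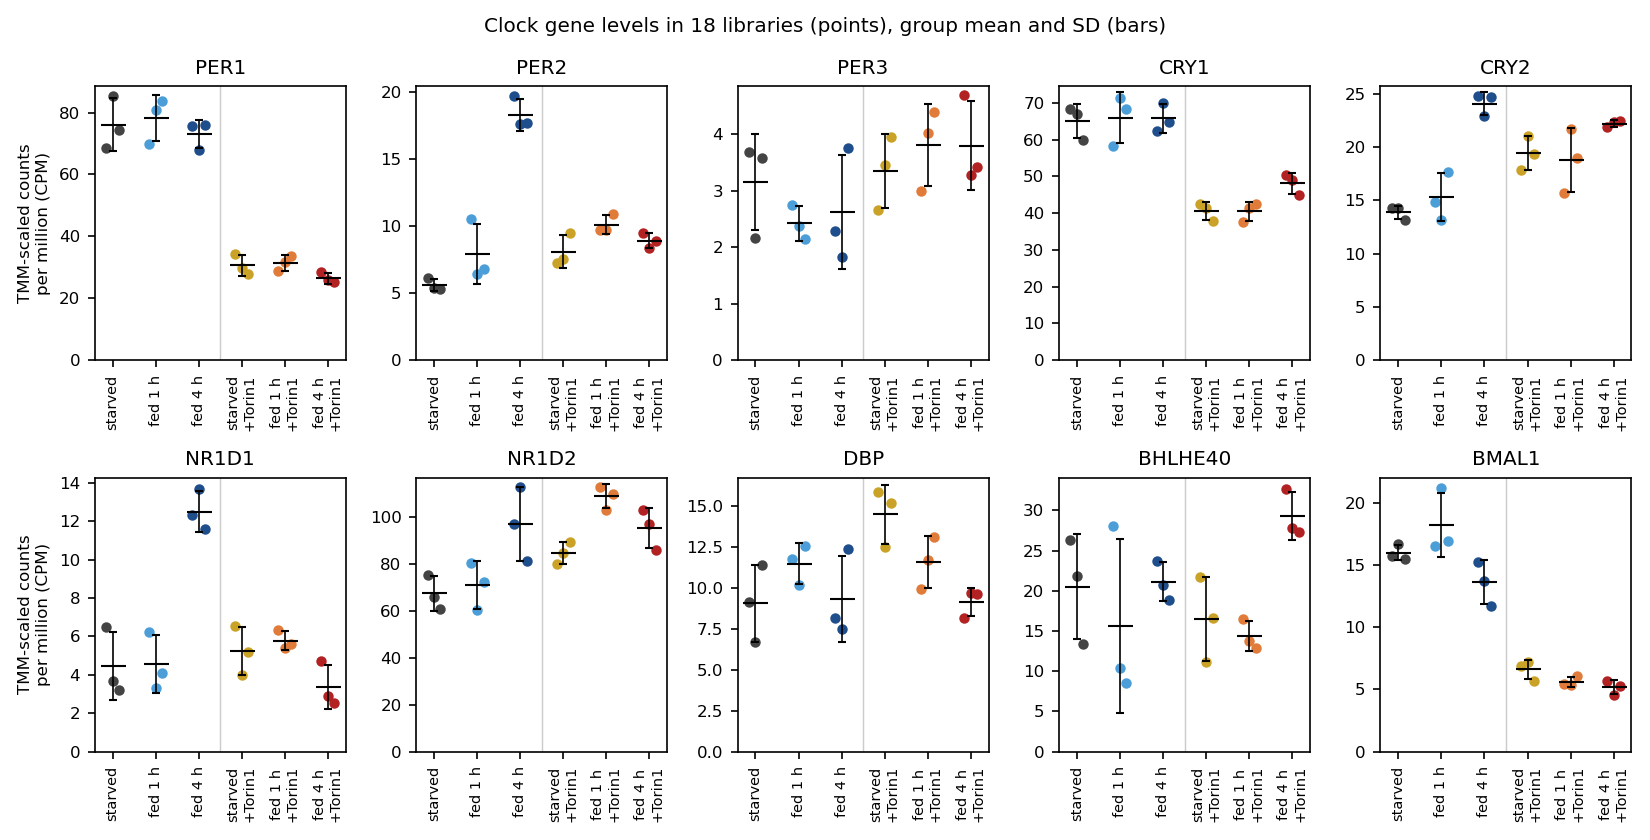
Level of each clock gene (y axis, TMM-scaled CPM, from 0) in the 18 libraries (points) of the 6 groups (x axis), with the mean and SD of each group (bars). PER2 and NR1D1 stand apart in the 4 h fed group without Torin1, at 17.6 to 19.7 and 11.6 to 13.7 CPM, and PER1 and BMAL1 are lower in all 9 libraries with Torin1 than in all 9 without it.

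After 4 h of feeding, 4 of the 10 clock genes had risen and 0 had fallen: PER2, CRY2, NR1D1 and NR1D2. By then 42.3% of all genes tested were called (23.2% higher and 19.1% lower), so 4 of 10 is close to the share over all genes. The median log2 fold change of the 10 was 0.04 (-0.00 with DESeq2 size factors), against -0.003 over all genes.

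Among the repressors, PER2 rose most, to 19.7, 17.6 and 17.7 CPM. Every 4 h fed library was above every starved and every 1 h fed library, and the log2 fold change over starved cells was 1.71 ± 0.18 (3.27-fold, adjusted p = 6.75e-09). CRY2, which holds BMAL1 and CLOCK in check together with PER, was 14.3, 14.3 and 13.2 CPM in starved cells, 14.9, 13.2 and 17.7 CPM at 1 h and 24.8, 22.9 and 24.7 CPM at 4 h. It rose by 0.79 ± 0.14 (adjusted p = 2.08e-05), again with no overlap. The other members of both families gave no call: PER1 was 75.7, 68.0 and 76.0 CPM at 4 h (log2 fold change -0.06 ± 0.10, 95% interval -0.28 to 0.17). CRY1 was 68.5, 67.1 and 59.8 CPM in starved, 58.3, 71.4 and 68.3 CPM in 1 h fed and 62.5, 70.1 and 64.8 CPM in 4 h fed cells (log2 fold change 0.01 ± 0.10 at 4 h, 95% interval -0.19 to 0.22). PER3 lay between 1.82 and 3.75 CPM in all 9 libraries without Torin1, and its interval at 4 h, -0.95 to 0.43, is wide at this depth.

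Both REV-ERB receptors rose. NR1D1 was 6.51, 3.68 and 3.21 CPM in starved cells, 6.24, 3.3 and 4.11 CPM at 1 h and 12.3, 13.7 and 11.6 CPM at 4 h. The 4 h fed libraries lay above the others without overlap, and the log2 fold change was 1.49 ± 0.26 (2.82-fold, adjusted p = 2.95e-05). NR1D2 was 75.5, 66.1 and 60.9 CPM in starved cells, 80.5, 60.4 and 72.4 CPM at 1 h and 97.1, 113 and 81.3 CPM at 4 h. Its rise was smaller, at 0.52 ± 0.11 (adjusted p = 0.000284), and the lowest 4 h fed library was only just above the highest 1 h fed one.

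BMAL1, the activator on which these receptors act, was 15.7, 16.7 and 15.5 CPM in starved cells, 16.5, 21.2 and 16.9 CPM at 1 h and 15.2, 13.7 and 11.7 CPM at 4 h. The 4 h fed libraries were all below the starved ones, yet the log2 fold change against starved cells, -0.24 ± 0.16, had an adjusted p of 0.239. Against 1 h fed cells BMAL1 fell by 0.42 ± 0.16 (adjusted p = 0.0314). That call was lost without 1 h fed replicate 2 (-0.31, adjusted p = 0.172) or without 4 h fed replicate 3 (-0.33, adjusted p = 0.15), and also with no filter (adjusted p = 0.0657) or with only the 2 groups in the fit (adjusted p = 0.0646), with adjusted p from 0.0124 to 0.172 over all 26 alternatives. PER2, CRY2, NR1D1 and NR1D2 all rose between 1 h and 4 h as well, by 1.22 ± 0.18, 0.66 ± 0.14, 1.46 ± 0.26 and 0.45 ± 0.11, so that 5 of the 10 genes were called in that comparison, where 39.8% of all genes were. The comparisons with 1 h and with starved cells share the 4 h fed libraries.

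DBP and BHLHE40 varied between libraries more than between feeding states. DBP was 9.14, 6.68 and 11.4 CPM in starved, 11.8, 10.2 and 12.6 CPM in 1 h fed and 8.14, 7.49 and 12.4 CPM in 4 h fed cells, and the groups overlapped. Without 4 h fed replicate 3 its change from 1 h to 4 h was -0.56 (adjusted p = 0.0397), against -0.31 with it, and the adjusted p was 0.0397 to 0.523 over 26 alternatives. BHLHE40 was 26.3, 21.8 and 13.4 CPM in starved, 28, 10.4 and 8.49 CPM in 1 h fed and 23.7, 20.7 and 18.9 CPM in 4 h fed cells. Replicate 1 of the 1 h fed group stood far above the others of that group. Without that library BHLHE40 was higher at 4 h than at 1 h by 1.15 (adjusted p = 0.00278), against 0.44 ± 0.39 (adjusted p = 0.409) with it; over 26 alternatives the adjusted p ranged from 0.00278 to 0.819.

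With Torin1 present, 0 of the 10 genes were called after feeding in the main edgeR fit, while some other edgeR fits called NR1D2, DBP or BHLHE40. DESeq2 called 0, 1 and 0 and limma-voom 0, 1 and 1 in the comparisons of 1 h and 4 h with starved cells and of 4 h with 1 h. The counts called over all genes were small too: 0.402% at 1 h, 1.8% at 4 h and 1.47% for 4 h against 1 h. Unadjusted p-values under 0.05 were reached by 1, 4 and 4 of the 10 genes, and by 11.1%, 13.1% and 14.1% of all genes. PER2 was 7.24, 7.53 and 9.47 CPM in starved, 9.67, 9.67 and 10.9 CPM in 1 h fed and 9.47, 8.38 and 8.88 CPM in 4 h fed cells with Torin1, and the change at 4 h was 0.15 ± 0.18. NR1D1 was 6.54, 4.01 and 5.18 CPM, then 6.33, 5.38 and 5.61 CPM, then 4.70, 2.90 and 2.55 CPM. Its change at 4 h, -0.63 ± 0.28, pointed down, but the adjusted p was 0.305. CRY2 was 17.9, 21.1 and 19.4 CPM, then 15.7, 21.7 and 19.0 CPM, then 21.9, 22.4 and 22.5 CPM (0.19 ± 0.13 at 4 h).

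Under Torin1, the calls for DBP, BHLHE40 and NR1D2 depended on the fit, and the main edgeR fit called none of them. Some of their feeding states did not overlap. That was also so for PER1, PER2, CRY1, CRY2, NR1D1 and BMAL1 with Torin1, among them CRY1 at 4 h against starved cells (0.24 ± 0.10, adjusted p = 0.239). How often it occurred over all genes was not counted. DBP was 15.9, 12.5 and 15.2 CPM in starved and 8.19, 9.68 and 9.61 CPM in 4 h fed cells with Torin1, with no overlap (log2 fold change -0.67 ± 0.19, adjusted p = 0.07). The adjusted p fell under the threshold in 5 other fits, among them DESeq2 (0.0356) and limma-voom (0.0494). It also did so when replicate 3 of the 4 h fed cells without Torin1, a library not compared here, was left out (0.04). Over 26 alternatives the adjusted p of DBP ranged from 0.0121 to 0.268. BHLHE40 was 21.7, 11.2 and 16.6 CPM, then 16.5, 13.8 and 12.9 CPM, then 32.7, 27.8 and 27.3 CPM, and the 4 h fed libraries with Torin1 were above all others with Torin1. The log2 fold change from 1 h to 4 h was 1.03 ± 0.38 (adjusted p = 0.229), and with only the 2 groups in the fit the adjusted p was 8.97e-06 (8.97e-06 to 0.451 over 26 alternatives). NR1D2 was 80.1, 84.5 and 89.3 CPM in starved and 113, 103 and 110 CPM in 1 h fed cells with Torin1 (0.36 ± 0.11, adjusted p = 0.193, and 0.0181 to 0.517 over 26 alternatives), and 103, 97.2 and 85.8 CPM at 4 h.

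**Figure D2:**
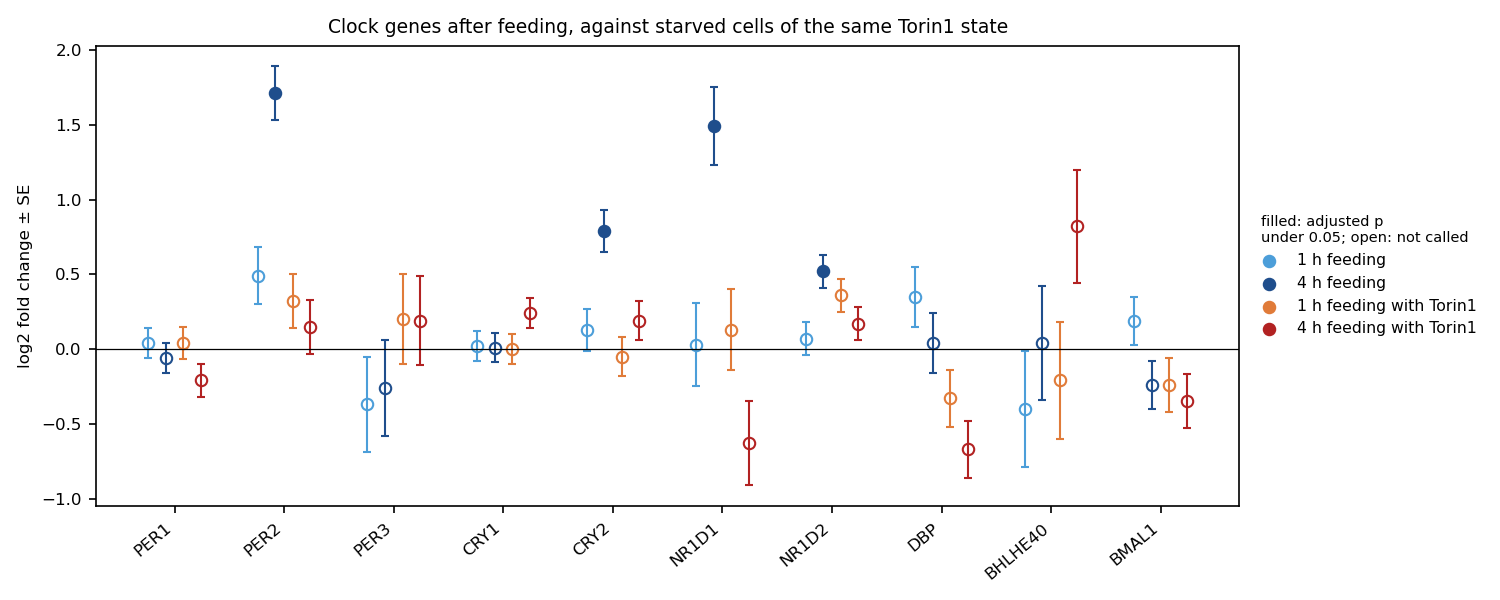
Log2 fold change of each clock gene (x axis) against starved cells of the same Torin1 state (y axis, with SE) after 1 h and 4 h of feeding, without and with Torin1; filled points had an adjusted p under 0.05. The filled points are PER2 at 1.71, NR1D1 at 1.49, CRY2 at 0.79 and NR1D2 at 0.52, all at 4 h without Torin1.

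The difference between the 4 h feeding changes with and without Torin1 was tested directly as an interaction. It was negative and called for 3 genes, all of which had risen without Torin1. The interaction was -2.13 ± 0.38 for NR1D1 (adjusted p = 8.07e-05), -1.57 ± 0.26 for PER2 (adjusted p = 2.4e-05) and -0.60 ± 0.19 for CRY2 (adjusted p = 0.019). The call for CRY2 was lost without replicate 2 of the starved cells with Torin1 (-0.54, adjusted p = 0.053, the highest of 26 alternatives, which began at 0.0111). For NR1D2, the fourth gene that rose, the interaction was -0.35 ± 0.15 (adjusted p = 0.0949), which does not show that its feeding changes differed or that they were alike. It was called without starved replicate 1 (-0.44, adjusted p = 0.0455) or without 4 h fed replicate 3 (-0.47, adjusted p = 0.0226), with adjusted p from 0.0226 to 0.313 over 26 alternatives. For DBP it was -0.71 ± 0.28 (adjusted p = 0.0593), called with the replicate block (-0.71, adjusted p = 0.0317) and without starved replicate 3 (-0.91), 4 h fed replicate 1 (-0.80) or 2 (-0.83) or starved Torin1 replicate 2 (-0.81), with adjusted p from 0.0203 to 0.264 over 26 alternatives. Of all genes, 25.8% were called for this interaction, and 3 of 10 is close to that share. The interaction at 1 h called 0 of the 10 genes in edgeR, DESeq2 and limma-voom, and 0.067% of all genes in edgeR. An unadjusted p under 0.05 was reached there by 1 of the 10 (DBP, -0.68 ± 0.27, adjusted p = 0.643) and by 6.53% of all genes.

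Compared within each feeding state, PER1, CRY1 and BMAL1 were lower with Torin1 in all 3 states. In starved cells 7 of the 10 genes were called (4 higher, 3 lower), in 1 h fed cells 4 (1 higher, 3 lower) and in 4 h fed cells 5 (all lower). Over all genes 63.5%, 63.1% and 56% were called in these comparisons. Scaling by library totals raised the median log2 fold change of all genes by 0.14, 0.11 and 0.16 in the 3 states; the counts of clock genes stayed at 7 and 5 in starved and 4 h fed cells, and in 1 h fed cells they became 4 higher and 3 lower, with PER2 (0.46), PER3 (0.76) and CRY2 (0.42) added. The summed HEK293 markers given above also differed between libraries with and without Torin1.

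PER1 was 34.2, 29.7 and 27.8 CPM in starved, 28.7, 31.8 and 33.8 CPM in 1 h fed and 28.5, 25.9 and 25.2 CPM in 4 h fed cells with Torin1. These 9 values were all below the 9 without Torin1, the lowest of which was 68.0 CPM. The log2 fold changes were -1.31 ± 0.11 (adjusted p = 5.07e-12), -1.31 ± 0.11 (adjusted p = 5.4e-12) and -1.46 ± 0.11 (adjusted p = 1.54e-12). BMAL1 was 6.89, 7.21 and 5.70 CPM, then 5.39, 5.38 and 6.04 CPM, then 5.70, 4.57 and 5.24 CPM, again below all libraries without Torin1. Its log2 fold changes were -1.27 ± 0.17, -1.70 ± 0.17 and -1.39 ± 0.17, with adjusted p from 8.45e-08 to 4.1e-10. CRY1 was 42.6, 41.3 and 37.9 CPM, then 37.6, 41.5 and 42.4 CPM, then 50.5, 48.9 and 45 CPM with Torin1, and these did not overlap the libraries without it. It fell by 0.68 ± 0.10, 0.71 ± 0.10 and 0.45 ± 0.10.

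PER2, CRY2, DBP and NR1D2 were higher with Torin1 in starved cells. The log2 fold changes were 0.53 ± 0.19 for PER2 (adjusted p = 0.0175), 0.48 ± 0.14 for CRY2 (adjusted p = 0.00315), 0.68 ± 0.19 for DBP (adjusted p = 0.00301) and 0.33 ± 0.11 for NR1D2 (adjusted p = 0.0114). The PER2 call was lost without starved replicate 2 (adjusted p = 0.0563) or 3 (0.0549), or without starved Torin1 replicate 3 (0.106), and the NR1D2 call without starved replicate 3 (0.0752) or starved Torin1 replicate 3 (0.0525). Over 26 alternatives the adjusted p ranged from 0.00375 to 0.106 for PER2 and from 0.0006 to 0.0752 for NR1D2. In 1 h fed cells NR1D2 was the member called higher, by 0.61 ± 0.11 (adjusted p = 1.6e-05). In 4 h fed cells the direction for PER2 was the opposite: it was lower with Torin1 by 1.04 on the log2 scale (-1.04 ± 0.17, adjusted p = 7.31e-06), and NR1D1 was lower too (-1.88 ± 0.27, adjusted p = 5.47e-07), a 3.69-fold difference. CRY2, NR1D2 and DBP gave -0.12 ± 0.13, -0.03 ± 0.11 and -0.03 ± 0.20 at 4 h, with 95% intervals of -0.40 to 0.17, -0.26 to 0.21 and -0.46 to 0.41; scaled by library totals they were 0.04, 0.14 and 0.13. PER3 was 2.65 to 4.70 CPM in the 9 libraries with Torin1 and, like BHLHE40, was called in none of the 3 states. In 4 h fed cells PER3 was called without 4 h fed replicate 3 (0.88, against 0.54 with it; adjusted p = 0.0297, in a range up to 0.405 over 26 alternatives), and BHLHE40 with only the 2 groups in the fit (0.50, adjusted p = 0.00302, in a range up to 0.489 over 26 alternatives).

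**Figure D3:**
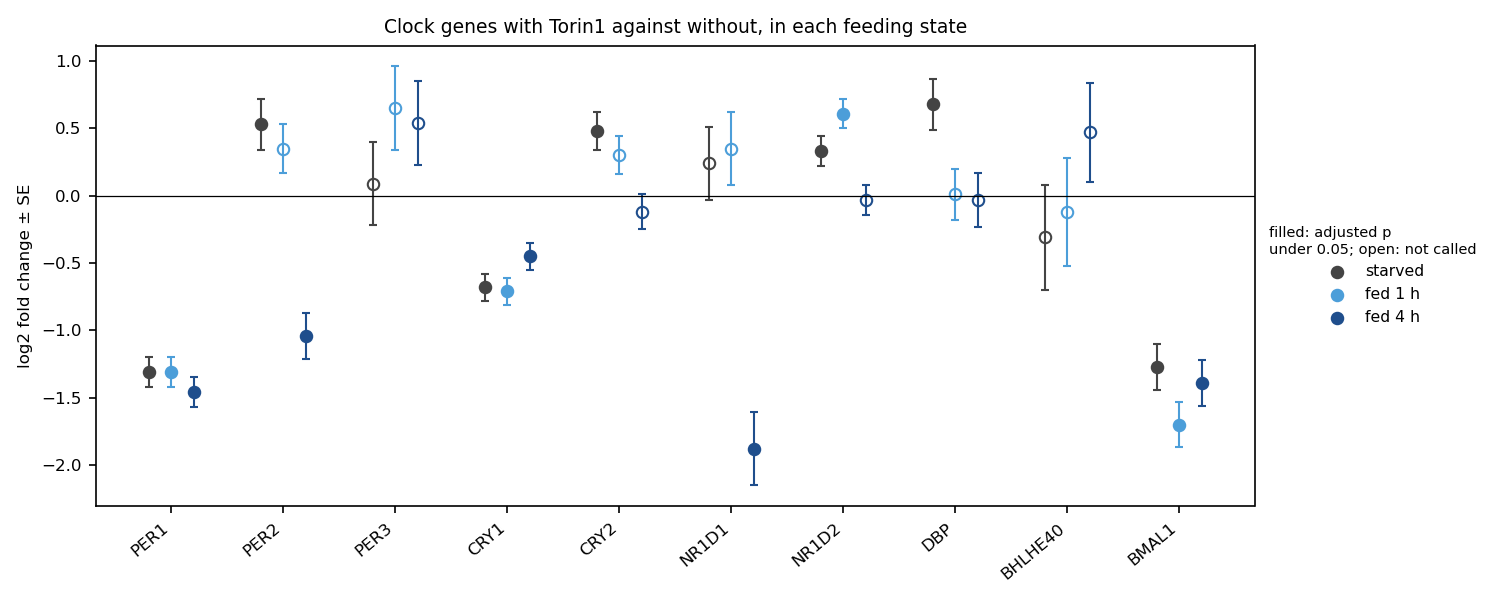
Log2 fold change of each clock gene (x axis) with Torin1 against without it (y axis, with SE) in the 3 feeding states; filled points had an adjusted p under 0.05. PER1, CRY1 and BMAL1 are below 0 in all 3 states, and PER2 is at 0.53 in starved cells and at -1.04 in 4 h fed cells.

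Over the 6 groups, each gene's levels fell into an order in which some neighbours overlapped and others did not. For PER2 the order was 4 h fed, then the 3 Torin1 groups and 1 h fed, then starved, with 4 h fed and starved separated from their neighbours, as were the 1 h and 4 h fed groups with Torin1, by 9.67 against 9.47 CPM. For NR1D1 the 4 h fed group stood above 5 groups that each overlapped the next. For PER1 the break lay between the 3 groups without and the 3 with Torin1, and inside each set neighbours overlapped. For CRY1 the same break was followed by another, with 4 h fed cells above starved and 1 h fed cells among those with Torin1. As a description over the 6 group means of log2 CPM, the pattern of BMAL1 had r = 0.99 with PER1, and that of PER2 had r = 0.84 with NR1D1 and 0.83 with CRY2. These points share their libraries, and the first value follows the split by Torin1.

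Among 11696 other genes averaging 5 CPM or more, those with the pattern most like PER1 over the 6 group means were COA4 (r = 0.9996) and TWNK (r = 0.9994). For PER2 they were AP5M1 (r = 0.9975) and SETD2 (r = 0.9963), and for NR1D1 NDUFAB1 (r = 0.9941) and GGA2 (r = 0.9861). For BMAL1 they were MTRF1 (r = 0.9990) and ABHD17A (r = 0.9984), and for BHLHE40 CHMP4C (r = 0.9843) and AKIP1 (r = 0.9627). With 6 points and this many genes, high values are to be had for many patterns, and with CPM in place of log2 CPM 4 of these 10 genes stayed among the nearest.

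Strand use in counting is not given in the sources used here, so reads of genes that overlap on opposite strands cannot be told apart with certainty. NR1D1 overlaps THRA, a thyroid hormone receptor gene, which was 22.4, 24.6 and 28.1 CPM without feeding and 25.8, 21.7 and 22.9 CPM in 4 h fed cells (-0.09 ± 0.12, adjusted p = 0.55). In 4 h fed cells THRA was higher with Torin1 (0.44 ± 0.11, adjusted p = 0.00135) where NR1D1 was lower. From 1 h to 4 h of feeding without Torin1, THRA changed by -0.23 ± 0.12 (not called) while NR1D1 rose by 1.46 ± 0.26. In some other comparisons THRA and NR1D1 moved the same way. Both were higher with Torin1 in starved cells (0.70 ± 0.11 and 0.24 ± 0.27), and both were lower at 4 h than at 1 h with Torin1 (-0.40 ± 0.11 and -0.77 ± 0.27). Of the values given where both moved the same way, only the 0.70 of THRA was called. The part of overlapping reads was not tested. NR1D2 overlaps NKIRAS1, which fell by 1.09 ± 0.18 at 4 h of feeding (adjusted p = 1.88e-05), while NR1D2 rose. DBP overlaps SPHK2, which was lower with Torin1 in starved cells by 2.26 ± 0.15 (adjusted p = 1.86e-12), while DBP was higher. PER1 shares its strand with ENSG00000263620, whose group means were 2.15 to 4.02 CPM.

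For 6 genes one isoform held at least 91.6% of the counts in every group, as group means. NR1D1-201 held 100% of the NR1D1 counts, PER2-201 between 95.8% and 100%, BHLHE40-201 between 96.5% and 99.4% and NR1D2-201 between 96.0% and 99.1%. PER1-201 held 91.7% to 96.3% and CRY1-201 91.6% to 94.1%. DBP-201, the main DBP isoform, held 73.8% ± 7.68 (SD, n = 3) in starved cells and 84.6% ± 5.68 in starved cells with Torin1. Without and with Torin1 it held 72.1% ± 5.2 and 90.2% ± 6.77 in 1 h fed cells. In 4 h fed cells these shares were 66.9% ± 1.67 and 68.6% ± 7.49. In CRY2 the division between the transcripts ENST00000616080 and ENST00000443527 differed widely between libraries of a group, at 58.9% ± 29.1 and 26.2% ± 23.1 in 4 h fed cells, and so did that between PER3-201 and PER3-202 and that among ARNTL-201 to ARNTL-205 of BMAL1. Isoform use could be tested in 7 of the 10 genes (not in PER2, NR1D1 and BHLHE40), and 0 were called for 4 h feeding, for Torin1 in starved cells or for Torin1 in 4 h fed cells. Of 10698 genes, 3.36%, 15.2% and 11.3% were called in these comparisons (359, 1630 and 1208 genes, and 143, 565 and 380 with the Simes test). At the depth of these isoforms the test does not show that isoform use was alike.

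The other transcription factors of the clock moved in both directions. Of 12 listed, 11 were tested, and 3 rose and 3 fell after 4 h of feeding, where 42.3% of all genes were called. BMAL2, a relative of BMAL1, rose by 0.71 ± 0.11, from 22.6 ± 1.69 to 36.9 ± 1.75 CPM (SD, n = 3), and TIMELESS, a replication fork protein named after a fly clock gene, by 0.32 ± 0.08. RORA, the activator at ROR elements, fell by 1.23 ± 0.19, from 21.6, 17.1 and 18.5 CPM to 6.39, 11.3 and 6.75 CPM (adjusted p = 4.47e-06). TEF, a relative of DBP, fell by 0.92 ± 0.17. CLOCK itself, the partner of BMAL1, was 37.5, 44.5 and 41.0 CPM in starved, 45.4, 53.4 and 59.5 CPM in 1 h fed and 27.0, 32.5 and 26.3 CPM in 4 h fed cells. It fell at 4 h by 0.52 ± 0.12 (adjusted p = 0.000581).

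With Torin1, CLOCK was lower in starved cells by 0.94 ± 0.12 (adjusted p = 4.26e-08) and in 4 h fed cells by 0.51 ± 0.12 (adjusted p = 0.00068), at 19.1 to 25.3 CPM in all 9 libraries. NPAS2, which can take the place of CLOCK, was higher, at 1.15 ± 0.28 in starved (adjusted p = 0.000571) and 0.98 ± 0.27 in 4 h fed cells (adjusted p = 0.00241). TIMELESS was higher by 1.01 ± 0.08 and 0.66 ± 0.08. TEF was lower in starved cells (-1.39 ± 0.17), and NFIL3, a repressor at D-boxes, was lower in 4 h fed cells (-0.92 ± 0.16). In the list as a whole, 4 were higher and 4 lower with Torin1 in starved cells, and 2 higher and 4 lower in 4 h fed cells (4 higher and 2 lower when scaled by library totals). Of all genes, 63.5% and 56% were called there.

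**Figure D4:**
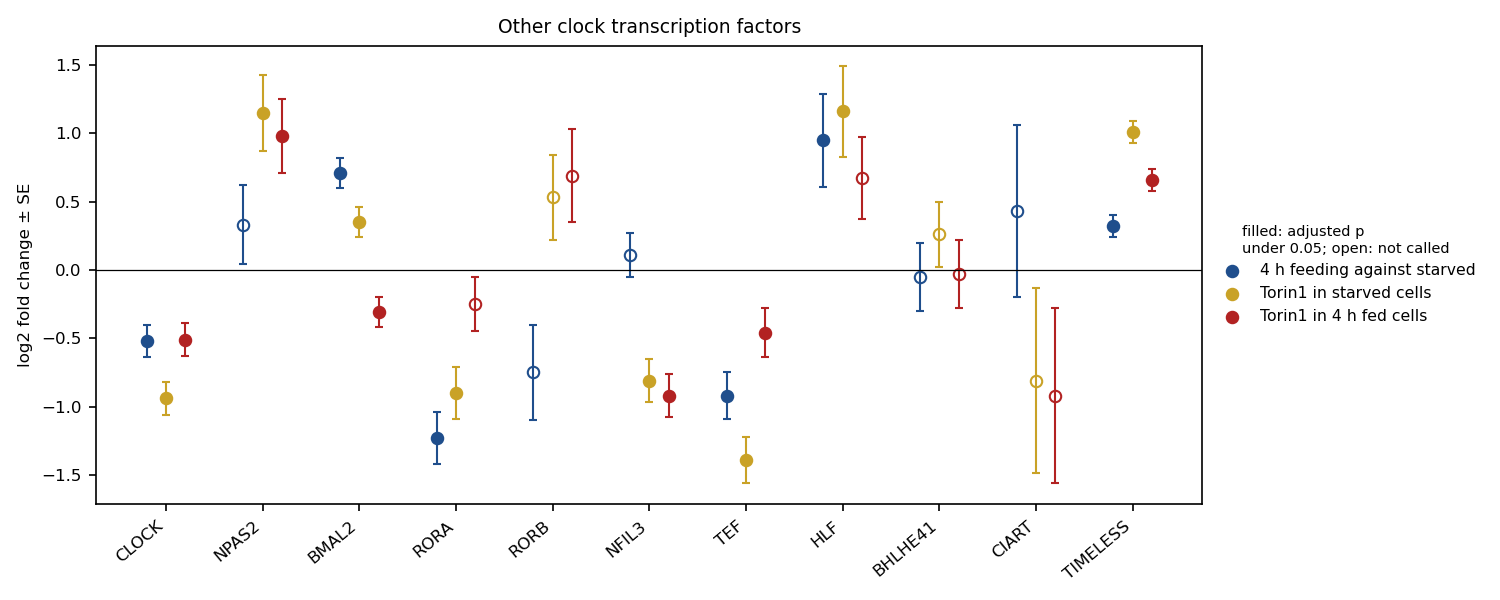
Log2 fold change (y axis, with SE) of the 11 other clock transcription factors tested (x axis) after 4 h of feeding and with Torin1 in starved and in 4 h fed cells; filled points had an adjusted p under 0.05. CLOCK is at -0.52, -0.94 and -0.51, RORA is at -1.23 after feeding, and TIMELESS is above 0 in all 3 comparisons.

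Kinases, phosphatases and ubiquitin ligases set how long PER and CRY proteins last. Of 21 such genes 11 rose and 2 fell after 4 h of feeding (9 and 2 with DESeq2 size factors), with a median of 0.20 against -0.003 over all genes, of which 23.2% rose and 19.1% fell. CUL1, the scaffold of the ligases for PER and CRY, rose by 1.40 ± 0.08 from 57.6 ± 1.43 to 152 ± 8.0 CPM, and USP7, a deubiquitinase of CRY, by 1.38 ± 0.08 from 88.2 ± 5.95 to 230 ± 22.9 CPM. FBXW11 (-0.38 ± 0.09), a receptor for phosphorylated PER, and the PER kinase CSNK1D (-0.28 ± 0.10) fell. With Torin1 in 4 h fed cells, where 56% of all genes were called (27.4% higher and 28.6% lower), 1 was higher and 11 were lower (3 and 6 by library totals), with USP7 at -0.82 ± 0.08, the PER kinase CSNK1E at -0.53 ± 0.07 and the phosphatase subunit PPP1CC at 0.18 ± 0.07. With Torin1 in starved cells, where 63.5% of all genes were called, 9 were higher and 9 lower (10 and 6 by library totals), among them CUL1 (1.19 ± 0.08), CSNK2A2 (0.92 ± 0.08), PPP1CB (-0.64 ± 0.10) and CSNK1E (-0.40 ± 0.07).

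Of 19 genes that carry light and serum signals to the PER promoters, such as CREB and its partners and serum response factor, 1 rose at 1 h (0 by library totals), and 6 rose and 6 fell at 4 h, against 0.646% and 42.3% of all genes called. RPS6KA4, a kinase of CREB, rose by 1.91 ± 0.21 from 5 ± 0.476 to 18.9 ± 5.69 CPM, and the coactivator CREBBP by 0.53 ± 0.08. CREM, a CREB relative, fell by 1.09 ± 0.15 and SRF by 0.62 ± 0.09. With Torin1 in starved cells 6 were higher and 10 lower (8 and 7 by library totals), with RPS6KA4 at 2.24 ± 0.21, CREB1 at 0.96 ± 0.11, CREM at -1.61 ± 0.15 and SRF at -1.33 ± 0.09. The share over all genes was 63.5% there and 56% in 4 h fed cells. In 4 h fed cells 4 were higher and 8 lower (7 and 6 by library totals), with the CREB coactivators CRTC1 at 0.90 ± 0.12 and CRTC2 at -0.60 ± 0.09, the kinase SIK2 at 0.35 ± 0.09 and ELK4, a partner of SRF, at -1.72 ± 0.13.

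Of 14 genes known as outputs of the clock 13 were tested. After 4 h of feeding 2 rose and 7 fell, with a median of -0.46, where 23.2% of all genes rose and 19.1% fell. The lipid receptor PPARD rose by 0.64 ± 0.12 and MYC by 0.43 ± 0.11, and PPARA and the growth factor VEGFA fell by 1.05 ± 0.13 and 1.05 ± 0.10. With Torin1 in starved cells 1 was higher and 7 lower (3 and 6 by library totals), with MYC at 0.92 ± 0.11, VEGFA at -2.46 ± 0.10 and ALAS1, which starts heme synthesis, at -1.25 ± 0.10. In 4 h fed cells 3 were higher and 7 lower (3 and 4 by library totals). KLF10 was higher there by 1.97 ± 0.18 and PPARA by 0.85 ± 0.13, and VEGFA and the cyclin CCND1 were lower (-1.55 ± 0.10 and -1.45 ± 0.11). Over all genes the medians were 0.092 and 0.024 for Torin1 in starved and in 4 h fed cells, and 63.5% and 56% were called.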

How the data were processed

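RNA from 18 HEK-293E libraries was sequenced. Per the labels' protocols RNA was extracted with TRIzol and treated with DNase I, and per the submitters' processing notes STAR, RSEM and DESeq2 were used, with no versions given. The labels name a C. elegans genome build while the tables hold human Ensembl identifiers, so the human build is not given in the sources used here, and coordinates are RefSeq's for promoters only. The deposited gene and isoform tables hold expected counts as the authors' RSEM estimated them, not normalized (3.32% of gene values were not whole). They were rounded here, kept by filterByExpr (minimum count 10), scaled by TMM, and tested in edgeR 4.0.16 (R 4.3.3) with a mean for each of 6 groups over 18 libraries (robust quasi-likelihood F tests, 12 residual degrees of freedom, biological coefficient of variation 10.6%). P-values were adjusted by Benjamini-Hochberg over 16414 genes, and genes under 0.05 were called. CPM are given for each library or as mean ± SD. 95% intervals use the SE and 12 degrees of freedom. Isoform use was tested with diffSpliceDGE on 48658 isoforms matched to GENCODE 29. The fits were tested on simulated counts; the isoform test was liberal and insensitive there.

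The members and gene lists were chosen with earlier results of these data known. Named beside the 10 members were the 2 called genes with the smallest p in each direction from 4 lists (at 4 h of feeding and for Torin1 in starved and 4 h fed cells, mean of at least 1 CPM), the 2 immediate early genes with the smallest p at 1 h, the 2 nearest patterns of members spanning at least 1 log2 unit, and isoforms with at least 10% of a gene; CLOCK at 4 h of feeding was added after its values were seen. Some listed genes are not reported here by name. Alternatives were DESeq2 1.42.0 size factors and Wald test, library totals, limma-voom (limma 3.58.1), other filters, fitting only the groups compared, a replicate block, omission of each library and a Simes test of isoforms chosen after seeing the data. Each library was left out whether or not its group was compared. The ranges over alternatives therefore include many fits that kept all compared libraries.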

Additional observations from a re-analysis of the deposited data

Results flagged for a closer look

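The change after 4 h of feeding differed between cells without and with Torin1 for 3 of the 10 clock genes, by the test of the difference itself, which called 25.8% of all genes. For NR1D1 the difference was -2.13 on the log2 scale, between 1.49 without and -0.63 with Torin1. For PER2 it was -1.57, between 1.71 and 0.15, and for CRY2 it was -0.60, between 0.79 and 0.19; the CRY2 call was lost without starved Torin1 replicate 2 (adjusted p = 0.053, in a range from 0.0111 over 26 alternatives). The comparisons share no libraries between the Torin1 states. Without Torin1, the 3 fed libraries lay above all 3 starved ones in each of these genes. Those libraries also gave the calls, so this is no separate evidence.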

How the results depend on the processing

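Over 110 member changes and 2849 refits, 2808 kept their side of the threshold, 10 lost a call and 31 gained one. These refits left out each library in turn for every comparison, including libraries of groups that were not compared. Such omissions kept all compared libraries and acted mainly through the spread shared by all groups. The 2808 therefore overstates how far the compared libraries themselves were tested. The estimate changed sign in 101 refits, 14 of them by another scaling, and 0 of these were called in either fit; their main values were within 0.21 of 0. With Torin1, the count of clock genes called after 1 h of feeding went from 0 to 1 (NR1D2) with no filter and with only the groups compared. At 4 h it went from 0 to 1 (DBP) with no filter, with the replicate block, with DESeq2's Wald test and with limma-voom, and to 2 (DBP and BHLHE40) with only the groups compared; leaving out 1 library gave 0 to 1. For 4 h against 1 h it went from 0 to 1 (BHLHE40) with the replicate block, with only the groups compared and with limma-voom, and leaving out 1 library gave 0 to 1. For Torin1 in 1 h fed cells library totals gave 7 in place of 4. The cause was not tested. E-boxes counted with their variant were in 7 genes in place of 3. 0 clock genes were called for isoform use in any setting.

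Libraries of the same replicate number were at most weakly alike: correlations of same-numbered deviations were -0.11 to 0.13 apart from 0.16 for number 1 at 1 h of feeding. All 3 numbers correlated best with themselves in 4 of 9 comparisons, among them the 3 feeding comparisons with Torin1. This is a hint from the data and not the design, and the main fit does not pair libraries. With the replicate block the all-gene count went from 66 to 110 for 1 h of feeding with Torin1, from 241 to 374 for 4 h against 1 h with Torin1 and from 11 to 23 for the interaction at 1 h. With only the groups compared the all-gene counts were 39 in place of 106 at 1 h of feeding, 208 in place of 66, 640 in place of 296 and 725 in place of 241 with Torin1, and 4 in place of 11 for the interaction at 1 h. DESeq2's Wald test gave 167, 119, 491, 460 and 43 for these. With no filter they were 164 and 150 at 1 h of feeding without and with Torin1, 364 for 4 h against 1 h with Torin1 and 77 for the interaction at 1 h. limma-voom gave 40 at 1 h of feeding with Torin1 and 7 for that interaction. Leaving out 1 library gave 55 (without starved replicate 2) to 248 (without 1 h fed replicate 1) at 1 h of feeding, 22 to 85, 134 to 395 and 99 to 379 for the 3 comparisons with Torin1, and 3 to 39 for the interaction at 1 h; each of the 4 highest was without 1 h fed replicate 1. BHLHE40 had the widest SE of the 10 genes in every comparison, 0.37 to 0.55.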
